A study of Mus musculus with 15 samples.

Results

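The normal state of embryonic cortical interneurons was described here from 7 control libraries of the 15 in the series, chosen by their labels alone. They were 4 *Lhx6* controls (Lhx6+/+;Nkx2-1-CreTg;R26R-YFPfl/fl) and 3 *Mtg8* controls (Mtg8+/+;Nkx2-1-CreTg;R26R-YFPfl/fl), each made from 1 embryo at embryonic day 14.5 on a mixed C57BL6/CBA background. These embryos were littermates of *Lhx6* or *Mtg8* mutants, which gave the other libraries of the series. In all 7, the *Nkx2-1* promoter drove Cre, and Cre switched on YFP in cells born in the medial ganglionic eminence (MGE) and in their progeny. Cortex was dissociated and YFP-positive cells were sorted, so the libraries hold RNA of whatever cells passed that gate. Age, reporter and Cre driver were thus shared by both control sets, while the mutant line they were bred with was not.

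The MGE is a ventral domain of the embryonic telencephalon whose progenitors make the somatostatin and parvalbumin classes of cortical interneurons, the local inhibitory cells of the cortex. NKX2-1 specifies these progenitors and activates *Lhx6*, a LIM homeodomain gene that stays on as the newborn cells migrate tangentially into the cortex. Inhibitory identity rests on the glutamate decarboxylases *Gad1* and *Gad2*, which make GABA, and on DLX transcription factors. *Sst* and *Npy* encode neuropeptides of interneuron subsets, and *Runx1t1* encodes MTG8, a transcriptional co-repressor of the MTG (CBFA2T) family.

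The 7 libraries held 15725405 to 19671917 reads, and at least 99.978% of each library fell on the 24158 genes listed in both tables. A level is given as reads per 1000000 reads of these genes and per kilobase of summed exon length, and an abundance without length as CPM, the same value before division by length. No read in a library allows up to 3 reads, or 0.153 to 0.191 CPM, for counting error only. Pearson correlations across genes of the log2 values were 0.9745 to 0.9874 for the 9 library pairs within a set and 0.9036 to 0.9328 for the 12 pairs between sets. *Lhx6* had levels of 80.98 to 116.2 in its own controls and 3.18 to 6.34 in the *Lhx6* mutants. *Runx1t1* had 55.3 to 68.8 in the *Mtg8* controls and 85.6 to 94.7 in the libraries labelled *Mtg8* mutant, above their controls and against that label, although counts over the whole gene do not show which exons were read.

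*Sst* and *Npy* were among the most abundant messages of these cells, and all 5 interneuron markers were found in each library. *Sst* had levels of 1023, 1034, 1003 and 1145 in *Lhx6* controls 1 to 4 and of 1320, 1067 and 1334 in *Mtg8* controls 1, 2 and 4. The mean was 1132 ± 141 (SD, n = 7), rank 22 among nuclear protein-coding genes, and the sets overlapped. *Npy* stood at 517.5, 522, 536 and 555 in the *Lhx6* controls and at 504, 475 and 574 in the *Mtg8* controls, with a mean of 526 ± 32.6 and rank 45. The ratio of the *Sst* level to the *Npy* level was 1.87 to 2.06 in the *Lhx6* controls and 2.25 to 2.62 in the *Mtg8* controls. *Lhx6* had 116, 81.0, 104 and 96.5 against 104, 104 and 103, a mean of 101 ± 10.6 and rank 383, with the *Mtg8* controls inside the range of the others. *Runx1t1* had 60.1, 53.8, 74.3 and 58.6 against 55.3, 68.8 and 55.3, a mean of 60.9 ± 7.74 and rank 684. *Gad1* had 26.6, 21.1, 21.5 and 20.1 against 24.8, 20.6 and 19.4, a mean of 22.0 ± 2.65 and rank 1910. For these last 3 genes the sets overlapped, and the highest library was an *Lhx6* control in each. The paper also reports *Mtg8* (*Runx1t1*) in pyramidal neurons of the developing cortex, so its level here cannot be given to interneurons alone.

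**Figure D1:**
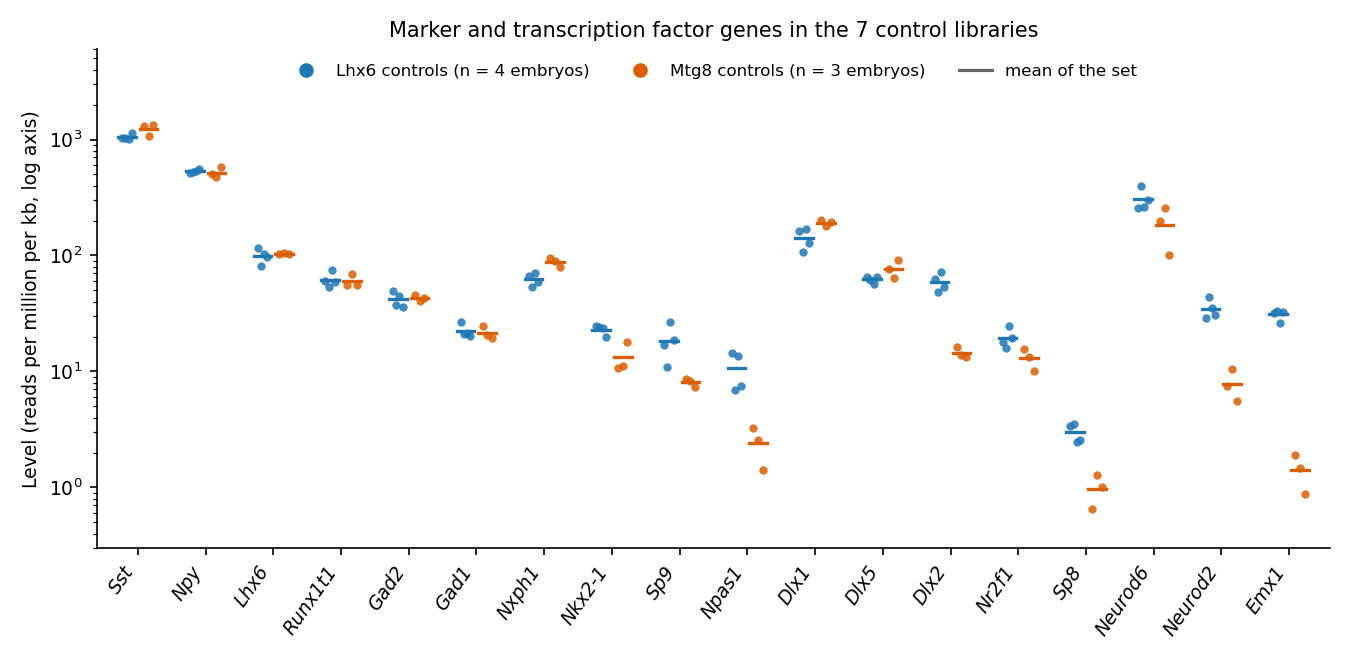
Levels (CPM per kb, log axis) of 18 marker and transcription factor genes, with 1 point for each control library, blue for the 4 Lhx6 controls and orange for the 3 Mtg8 controls, and a bar at the mean of each set. Sst, Npy, Lhx6, Runx1t1, Gad2 and Gad1 overlap between the sets, whereas Dlx2, Sp8, Neurod2 and Emx1 are lower in each Mtg8 control than in each Lhx6 control.

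Genes of the cytoskeleton and of ubiquitin led the levels. Of 14355 nuclear protein-coding genes, 25 had a mean level of at least 1000, 386 of at least 100, 3766 of at least 10 and 9650 of at least 1, and 8409 reached 1 in all 7 libraries. At the other end, 1737 had a mean level under 0.1. Among the 20 highest were *Ubb*, which encodes a ubiquitin precursor (8003 ± 767, n = 7), *Tuba1a* (6508 ± 1716), *Gm8797* (4751 ± 419), *Gm9844* (3771 ± 578), *Tuba1c*, *Tmsb10*, *Stmn1*, *Tuba1b*, *Actb*, *Ptma*, *Nnat*, *Nrep*, *Calm2*, *H3f3b*, *Ftl1*, *Gm2000*, *Selenow*, *Tubb3* and *Tubb2b*. These include 5 tubulins and the actin, thymosin (*Tmsb10*) and stathmin (*Stmn1*) genes of the cytoskeleton. Together the 20 took 8.41% to 8.85% of reads in the *Lhx6* controls and 9.84% to 10.5% in the *Mtg8* controls. These ranges do not overlap, at a two-sided exact permutation p = 0.0571, the smallest that 4 libraries against 3 allow.

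Several of these levels cannot be given to 1 gene, since near-identical copies share their reads. The highest level of any gene was that of *Gm1821* (8463 ± 788, n = 7), a processed pseudogene on chromosome 14 whose sequence holds ubiquitin repeats. Of its 75-base windows, the length of a read, 85.1% occurred without mismatch in another annotated gene, and for *Ubb* this share was 56.8%. The run below is shown because a read from it fits both genes equally well. It encodes the start of a ubiquitin unit, is read from GRCm38 on the plus strand and is identical in both, so that no base is in capitals.
Ubb, chr11:62552146-62552220: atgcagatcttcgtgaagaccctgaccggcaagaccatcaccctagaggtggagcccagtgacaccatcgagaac
Gm1821, chr14:46084126-46084200: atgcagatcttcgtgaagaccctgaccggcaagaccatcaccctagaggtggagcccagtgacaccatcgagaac

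The same limit held for *Tuba1a* (70.5% of windows shared), *Tuba1b* (78.3%), *Tuba1c* (56.7%), *Ftl1* (84.8%) and *Gm8797* (71.2%), and for nuclear copies of mitochondrial genes, where *Gm10925* shared 100% of its windows with *mt-Atp6*. Of 700 genes examined for this, 92 shared at least 50% of their windows. Pseudogenes took 12.6% to 14.3% of reads, and 418 of 5035 had a mean level of at least 100. *Sst*, *Npy*, *Gad1* and *Runx1t1* shared no window, and *Lhx6* shared 0.939% of its windows. Long noncoding RNA genes were mostly low, with 5 of 2772 at a level of at least 100. *Malat1*, an abundant nuclear transcript, led the named ones at 549 ± 125, while *Neat1* stood at 0.0226 ± 0.0179.

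Many genes differed between the 2 control sets, while none of the 5 interneuron markers was called in the main scaling. Of 15020 genes with a mean of at least 1 CPM, 6873 (45.8%) differed by limma at a Benjamini-Hochberg adjusted p below 0.05, of which 2459 (16.4%) were higher and 4414 (29.4%) lower in the *Mtg8* controls. The sets did not overlap for 7380 genes (49.1%). The median log2 difference over all tested genes was -0.17 when libraries were scaled to their totals and moved by 0.184 under TMM scaling, which gave 3666 higher and 3217 lower. DESeq2 size factors gave 3591 and 3243, edgeR 3466 and 3275, and DESeq2 3597 and 3488. Library names were dated for *Mtg8* controls 1 and 2 and undated for the other 5. A term for this name style leaves the set difference to *Mtg8* control 4 alone against the *Lhx6* controls, so its calls are not given. Under 4 other scalings and tests (TMM, DESeq2 size factors, edgeR and DESeq2), 2458 of the higher and 3144 of the lower genes kept their call. List counts below are given first for the main scaling and then as the number that kept their call under all 4. The median differences under the 4 were 0.018, 0.012, -0.0098 and -0.014 in that order, all above that of the main scaling. This shift could remove lower calls far more readily than higher ones, so a kept higher call is little check. Each list count is to be read against the 16.4% higher and 29.4% lower of all tested genes. These 4 settings could also add calls, which are given for many of the lists but not for all. The sets were bred with different mutant lines and deposited in separate tables, and line, table and whatever else differed between them cannot be told apart here.

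Between the sets, *Sst* (chr16:23889573-23890958), *Npy* (chr6:49822710-49829507), *Lhx6* (chr2:36081953-36105408), *Gad1* (chr2:70553072-70602014) and *Runx1t1* (chr4:13743436-13893649, all GRCm38) were compared by name. *Sst* differed by a log2 value of 0.23 (SE 0.096, adjusted p = 0.0668 by limma), higher in the *Mtg8* controls, and *Lhx6* by 0.07 (SE 0.111). *Npy* and *Gad1* both differed by -0.05 and *Runx1t1* by -0.04, with SEs of 0.0896, 0.121 and 0.12. None of the 5 was called in the main scaling, and the sets overlapped in each. For *Sst* the call depended on the scaling, since TMM gave 0.43 and edgeR 0.41, both with an adjusted p below the threshold (0.0053 and 0.0081). The small differences of *Npy*, *Gad1* and *Runx1t1* changed sign under those scalings without being called. With each library's trends with GC content and length removed, *Npy*, *Runx1t1*, *Lhx6* and *Sst* were called higher, as given with that step further on.

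**Figure D2:**
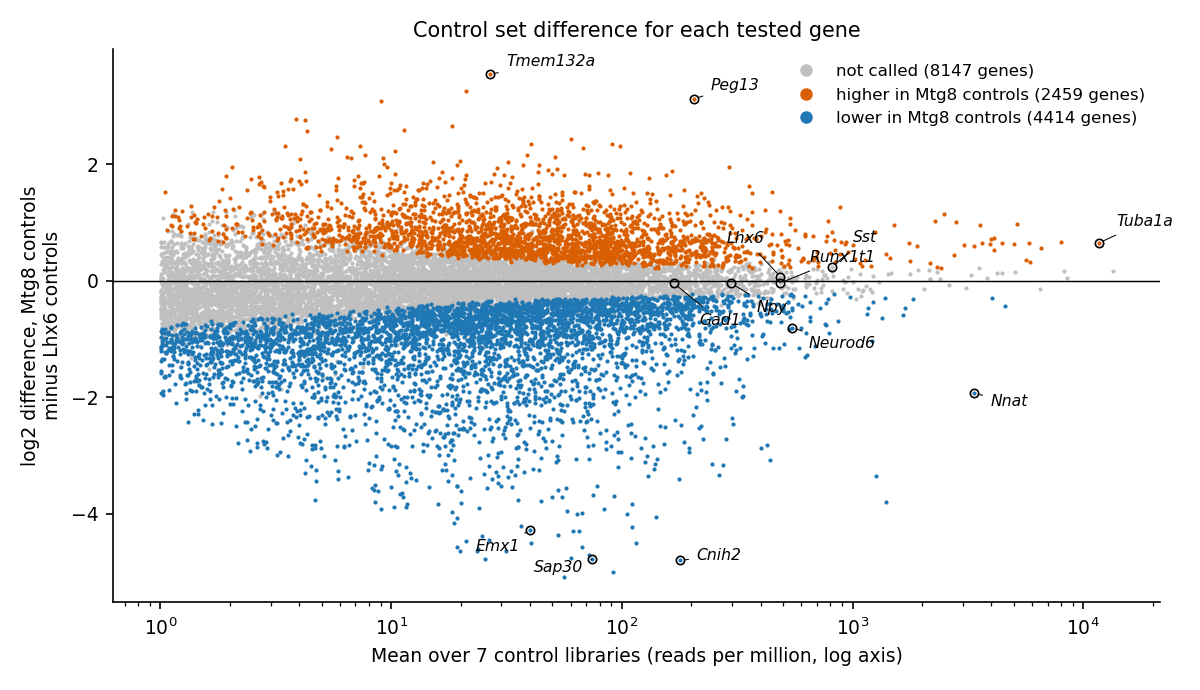
Each of the 15020 tested genes by its mean over the 7 control libraries (CPM, log axis) and its log2 difference, Mtg8 controls minus Lhx6 controls, coloured by whether limma called it. Called genes lie on both sides of 0, the 5 interneuron markers lie close to 0, and the farthest genes lie below it.

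Most MGE identity genes had a mean level of at least 10 over the 7 libraries, and members differed in either direction. Of 15 listed lineage genes, 12 had a level of at least 10, led after *Lhx6* by the synaptic ligand gene *Nxph1* (73.6 ± 15.5, n = 7), *Cux2* (49.7 ± 8.48), *Mef2c* (36.002 ± 12.4) and *Maf* (31.5 ± 9.76). *Sox6* (19.2 ± 4.76) and *Satb1* (11.5 ± 1.92), regulators of interneuron migration and differentiation, were lower in level. The summed level of the list was 344 to 461 in the *Lhx6* controls and 437 to 479 in the *Mtg8* controls. In the *Mtg8* controls 6 of the 15 were higher (6 under all 4 scalings: *Nxph1*, *Mef2c*, *Maf*, *Sox6*, *Erbb4*, *Etv1*) and 4 lower (3: *Nkx2-1*, *Sp9*, *Npas1*, with *Satb1* losing its call), and the list's median log2 difference was 0.12 against -0.17 for all tested genes. TMM gave 8 higher and 3 lower. *Npas1*, a bHLH-PAS factor, had 14.5, 6.94, 13.5 and 7.52 against 3.25, 2.57 and 1.42, with each *Mtg8* control below each *Lhx6* control (log2 difference -2.06, SE 0.308, adjusted p = 2.0e-04 by limma). *Nkx2-1*, which cortical MGE interneurons normally switch off, was still read at 24.7, 24.0, 23.5 and 19.7 against 10.7, 11.2 and 17.9, lower in each *Mtg8* control.

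Of the *Dlx* genes, general regulators of GABAergic fate, 6 were listed and all had a level above 10. *Dlx1* stood at 164, 108, 170 and 128 against 203, 179 and 195, and *Dlx2*, its neighbour on chromosome 2, at 62.7, 48.4, 71.4 and 54.0 against 16.3, 13.9 and 13.4. For *Dlx1* the *Mtg8* controls lay above, and for *Dlx2* below, each *Lhx6* control. The ratio of *Dlx1* to *Dlx2* was thus 2.22 to 2.61 in one set and 12.4 to 14.5 in the other, with *Dlx1* higher (log2 difference 0.46, SE 0.141) and *Dlx2* lower (-1.998, SE 0.138) in the *Mtg8* controls, both under all 4 scalings. The antisense and long noncoding partners *Dlx1as* (0.88) and *Dlx6os1* (0.80) were higher as well, *Dlx1as* sharing 20.6% of its exon bases with *Dlx1* on the opposite strand. *Dlx5* (68.5 ± 11.7, n = 7) and *Dlx6* (20.6 ± 4.94) were not called in the main scaling but were higher under each of the other 4.

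Genes of the caudal ganglionic eminence (CGE), the source of VIP and related interneurons, were low. *Nr2f1* (16.8 ± 4.67, n = 7), *Htr3a* (7.74 ± 1.53), *Calb2* (6.62 ± 2.34) and *Nr2f2* (5.70 ± 0.833) led the list, *Prox1* had 0.559 ± 0.219 and *Sncg* 0.0562 ± 0.0965. *Vip* was not analysed here. The list summed to 40.5 to 46.7 and 32.7 to 37.8, far below the MGE list, with 0 of 7 tested members higher and 2 lower (1 under all 4 scalings, *Sp8*). DESeq2 gave 1 higher and 2 lower, and removal of the sequence trends described further on gave 1 and 1. Of the genes for striatal projection and cholinergic neurons, other ventral telencephalic classes, *Bcl11b* alone exceeded 10 (45.7 ± 8.40). *Isl1* had 0.778 ± 1.27, and *Lhx8*, a regulator of cholinergic neurons, had 0 to 0.680 and at least 1 read in 6 of 7 libraries. The *Lhx6* level was at least 119 times that of *Lhx8* in each library in which *Lhx8* had a read. *Slc5a7*, the choline transporter gene, had 0.0153 ± 0.0199. None of these 8 tested genes was higher and 5 were lower (3 under all 4 scalings).

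Beyond *Sst* and *Npy*, neuropeptide genes were low. Of 13 listed in both tables, *Cck* followed at 15.9 ± 8.39 (n = 7), *Pnoc* at 3.59 ± 1.04 and *Cort* at 2.68 ± 2.06, and 6 were under 1, with *Pdyn* at 0.0844 ± 0.116. *Crh*, *Cartpt*, *Gal* and *Nts* were listed in 1 table each. *Cck* had 22.0, 22.7, 22.7 and 22.98 against 9.21, 5.27 and 6.70, a drop beyond the spread in either set (log2 difference -1.66, SE 0.1805). *Cort* was lower too, and *Pnoc*, the nociceptin precursor, was higher (0.645, SE 0.202).

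Co-regulators of the LHX6 and MTG8 families were present together in these bulk samples, which do not show whether they share cells. *Runx1t1* was the highest of the 3 MTG genes, with *Cbfa2t3* at 27.008 ± 4.12 (n = 7) and *Cbfa2t2* at 15.6 ± 2.10, and its level was 2.04 to 2.49 times that of *Cbfa2t3* across the 7 libraries. *Ldb1*, which encodes the adaptor that binds LIM domains, had 9.13 ± 2.33. Among LIM-only genes, which can compete for LDB1, *Lmo4* had 29.0 ± 12.5 and *Lmo1* 20.5 ± 14.9. *Lmo1* stood at 25.6, 43.6, 29.3 and 27.008 against 5.51, 9.31 and 2.95, without overlap. Of the 9 genes none was higher and 3 were lower, *Lmo4* (-1.27), *Lmo1* (-2.45) and *Lmo2* (-1.47), all under the 4 scalings, and 2 other members were called higher under each of the 4. With the sequence trends described further on removed, 3 members were higher and 1 lower, so the balance of this list depends on that step. Of the other LIM homeodomain genes, *Lhx2* (15.4 ± 7.70) exceeded 10, and of 6 tested, *Lhx6* among them, 4 were lower (4: *Lhx2*, *Lhx5*, *Lhx1*, *Lhx9*).

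In the other transcription factor families the leading genes included *Sox11* (1027 ± 211, n = 7), *Sox4* (254 ± 92.9), *Meis3* (17.6 ± 7.98), *Id2* (59.0 ± 22.3) and *Tcf4* (39.4 ± 3.82). SOX4 and SOX11 are paired regulators of neuronal differentiation, and the ratio of *Sox11* to *Sox4* was 2.82 to 3.61 in the *Lhx6* controls and 5.20 to 8.91 in the *Mtg8* controls, although 53.8% of the *Sox4* windows also occurred in *Gm26735*. Of 9 tested *Sox* genes, 1 was higher (*Sox6*) and 4 lower (*Sox4*, *Sox9*, *Sox5*, *Sox21*), all under the 4 scalings. *Sox7*, *Sox30*, *Sox17* and *Sox18* were below 0.1. Of 11 MEIS, PBX and PKNOX genes 2 were higher (2, *Pknox1* and *Pknox2*) and 7 lower (4). Of 7 E-protein and Id genes none was higher, with 2 higher under each of the other 4 scalings, and 4 were lower (2). *Id4*, an inhibitor of bHLH factors, had 33.5, 28.9, 33.1 and 38.5 against 3.01, 3.10 and 2.31, with each *Mtg8* control below each *Lhx6* control.

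Messages of excitatory cortical neurons were present in each library and lower in the *Mtg8* controls. *Neurod6*, a marker of postmitotic pyramidal neurons, had levels of 259, 399, 262 and 303 in the *Lhx6* controls and of 198, 257 and 100.2 in the *Mtg8* controls, so that 6 of 7 libraries held more *Neurod6* than *Lhx6* per kilobase. *Neurog2*, the proneural gene of pallial progenitors, had 54.4, 45.9, 45.2 and 55.7 against 3.42, 4.29 and 1.71, and *Emx1*, which is restricted to the pallium, 31.9, 33.2, 26.4 and 32.5 against 1.90, 1.48 and 0.885. In both, each *Mtg8* control lay below each *Lhx6* control. The log2 differences were -0.81 (SE 0.256) for *Neurod6*, -3.99 (SE 0.236) for *Neurog2*, -4.29 (SE 0.208) for *Emx1*, -3.78 (SE 0.285) for *Fezf2* and -2.14 (SE 0.197) for *Neurod2*. Of 15 pyramidal genes none was higher and 12 were lower (9 under all 4 scalings, *Neurod6* not among them), against 29.4% of all tested genes, and the median was -1.71, or -0.95 with the sequence trends removed. The list summed to 467 to 634 and to 132 to 325. In bulk samples fewer cells of a type and less RNA per cell cannot be told apart. *Slc17a7*, the vesicular glutamate transporter of mature pyramidal neurons, had 0.349 ± 0.172 (n = 7), and *Gad1* was at least 34.0 times higher in each library.

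Progenitor and cell cycle genes followed the same order. *Fabp7*, a radial glia gene, had 220.2, 285, 212 and 240 against 129, 116 and 142, and *Hes1*, a Notch effector, 11.02, 12.5, 9.53 and 10.03 against 1.34, 1.26 and 1.398. Both fell apart by set without overlap. Of 11 tested progenitor genes none was higher, with 1 higher under each of the other 4 scalings, and 7 were lower (7), among them *Fabp7*, *Vim*, *Hes5*, *Hes1*, *Nes* and *Pax6*, with a median of -0.89 and sums of 321 to 403 and 176 to 203. With the sequence trends removed 5 of the list were lower. *Gsx2* and *Gsx1*, ventral progenitor genes, stood at 0.225 ± 0.274 and 0.0950 ± 0.146 (n = 7). Of 17 cell cycle genes 1 was higher (*Mcm5*) and 11 lower (8), with a median of -0.61 against -0.17 for all tested genes and sums of 272 to 333 and 194 to 218. The highest were *Hmgb2* (58.3 ± 16.6), *Pcna* (55.5 ± 5.12) and *Ccnd2* (33.1 ± 13.6), while the proliferation marker *Mki67* had 3.19 ± 1.11. Cajal-Retzius genes were low, led by *Reln* at 4.82 ± 1.21, with 0 higher and 2 lower (2, *Lhx5* and *Lhx1*) of 6. The part of these lists in the rest of the set difference was not tested.

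**Figure D3:**
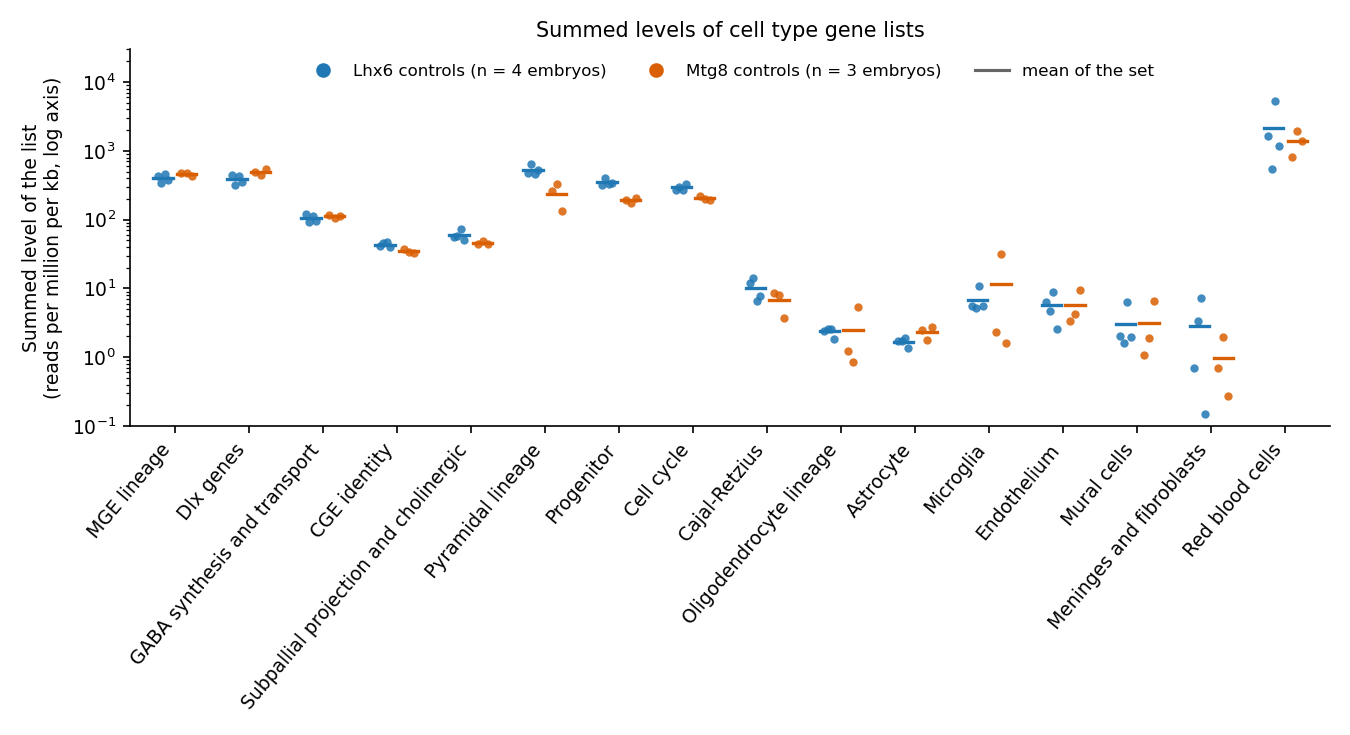
Summed levels (CPM per kb, log axis) of 16 lists of cell type genes, with 1 point for each control library, blue for the 4 Lhx6 controls and orange for the 3 Mtg8 controls, and a bar at the mean of each set. The MGE and Dlx lists stand near 400, the pyramidal, progenitor and cell cycle lists are lower in each Mtg8 control than in each Lhx6 control, and glial and vascular lists stay below 32.

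Glial, vascular and meningeal genes were low. The sums per library were 0.854 to 5.41 for 7 oligodendrocyte lineage genes, 1.37 to 2.76 for 4 astrocyte genes, 2.61 to 9.61 for 9 endothelial genes, 1.06 to 6.61 for 6 mural genes and 0.150 to 7.20 for 5 genes of meninges and fibroblasts. *Olig2* (0.459 ± 0.412, n = 7), *Pdgfra* (0.160 ± 0.205), *Aqp4* (0.0340 ± 0.0465), *Pecam1* (0.397 ± 0.173) and *Pdgfrb* (0.170 ± 0.230) were all below 1 on average, while the highest members of these lists were *Slc2a1* (3.91 ± 1.22), *Rgs5* (2.33 ± 1.76) and *Slc1a2* (1.62 ± 0.210). In these 5 lists 1 gene was called in the main scaling, *Olig2*, which was lower (-1.78, SE 0.366) but not with the sequence trends removed. In the oligodendrocyte list removal of the sequence trends gave 1 gene higher. The 1 tested astrocyte gene was called higher under each of the other 4 scalings. Microglia genes summed to 5.16 to 10.7 and to 2.28, 31.2 and 1.63. *Mtg8* control 2 was the highest, with *P2ry12* at 5.87 against 0.120 to 0.475 in the other 6 libraries. Of 6 tested microglia genes none was called in the main scaling, but edgeR and DESeq2 each called 1 higher. Globin genes, which mark red blood cells, were high in a sort meant for neurons. *Hba-a2* had 528, 179.9, 1884 and 427 against 288, 697 and 477, with *Lhx6* control 3 the highest and *Lhx6* control 2 the lowest. The red blood cell list summed to 545 to 5286 and to 822 to 1968, and *Hba-a1*, *Hba-a2*, *Hbb-bs* and *Hbb-bt*, whose copies share 56.6% to 81.0% of windows, were not called. The embryonic globins *Hbb-y* (log2 difference -2.72, SE 1.004) and *Hba-x* (-1.85, SE 0.617) were lower, and neither kept its call under all 4 scalings.

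Genes for making, packaging and removing GABA were read at uneven levels. *Gad2* had a mean level of 42.4 ± 4.71 (n = 7), 1.77 to 2.21 times that of *Gad1*. The vesicular transporter *Slc32a1* had 7.57 ± 3.63 and the degrading transaminase *Abat* 9.33 ± 6.40. Of 8 tested genes of GABA synthesis and transport 2 were higher (2) and 3 lower (2, and 1 with the sequence trends removed), with a median of -0.19, near the -0.17 of all tested genes. *Slc32a1* had 4.55, 3.25, 7.23 and 4.92 against 8.91, 12.99 and 11.2, and *Abat* 5.68, 4.396, 4.71 and 4.81 against 12.6, 11.5 and 21.6, so both sets lay apart (log2 differences 1.16, SE 0.235, and 1.57, SE 0.193). *Slc12a2*, the chloride importer of immature neurons, exceeded *Slc12a5*, the exporter of mature ones, by 2.25 to 3.28 times in all 7 libraries, at 1.84 ± 0.523 and 0.660 ± 0.208.

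Receptor families were read unevenly. A level of at least 1 was reached by 7 of 8 AMPA and kainate genes and 7 of 13 GABA receptor genes. It was reached by 2 of 9 NMDA and delta genes and 1 of 7 metabotropic genes. *Gria1* led the AMPA and kainate receptors at 129 ± 51.1 (n = 7), ahead of *Gria4* (22.4 ± 5.90), *Gria2* (11.005 ± 1.96) and *Grik1* (9.02 ± 3.53). *Gria1* had 112, 78.9, 98.7 and 70.3 against 174, 169 and 199, higher in each *Mtg8* control (log2 difference 1.02, SE 0.143, adjusted p = 1.2e-04 by limma). Of 7 tested AMPA and kainate genes 5 were higher (5) and 1 lower (1, *Grik5*, -2.62). NMDA receptor genes were low, with *Grin2b* at 2.12 ± 0.690 and the obligate subunit *Grin1* at 0.496 ± 0.206, while *Grin2d*, *Grin2a* and *Grin2c* were under 0.1. In 7 of 7 libraries *Grin2b* exceeded *Grin2a*. Among metabotropic receptors *Grm5* (8.05 ± 3.07) alone exceeded 1, and 2 of 5 were higher (2) and none lower. Among GABA-A subunits *Gabra2* had 6.48 ± 2.59. Of 11 tested GABA receptor genes 2 were higher (2) and 3 lower (3), close to the shares of all tested genes. TMM, edgeR and DESeq2 each gave 3 higher.

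**Figure D4:**
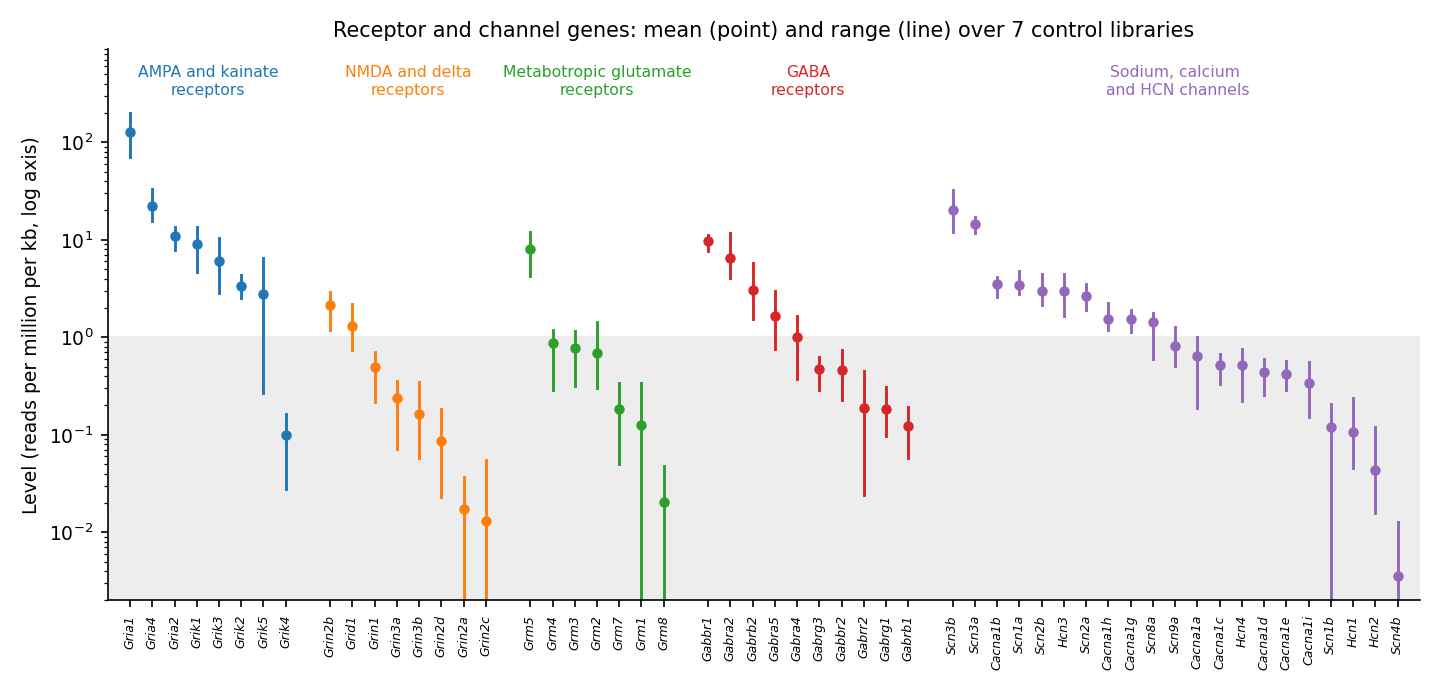
Mean (point) and range (line) over the 7 control libraries of the level (CPM per kb, log axis) of 54 receptor and channel genes, grouped by family and ordered by mean. Each family runs from at least 1 gene above 1 to at least 1 below it (shaded), and lines that reach the bottom include a library with no read.

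A pair of sodium channel genes led the channels examined. *Scn3b* (20.04 ± 7.74, n = 7) and *Scn3a* (14.4 ± 1.64), both abundant before birth, led 22 sodium, calcium and HCN genes, *Scn3a* being 3.11 to 5.03 times *Scn1a*. *Cacna1b*, the N-type calcium channel, followed at 3.53 ± 0.501, 12 of the 22 were under 1, and *Hcn2* and *Scn4b* were under 0.1. Of 18 tested, 5 were higher (5: *Scn3b*, *Hcn3*, *Scn2a*, *Scn9a*, *Cacna1i*) and 1 lower (1, *Cacna1a*), with a median of 0.29, while TMM gave 8 and 1. Genes of transmitter release were already read at moderate levels, led by *Syt11* (79.6 ± 13.13), *Vamp2* (39.7 ± 6.58) and *Snap25* (33.8 ± 3.85). *Syt2*, a synaptotagmin of mature fast-spiking cells, had 0.0417 ± 0.0423. Of 17 tested release genes 9 were higher (9) and 2 lower (1), with a median of 0.35. Each of the other 4 scalings gave 11 higher, while removal of the sequence trends gave 8 higher and 1 lower.

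Most tubulin genes were higher in the *Mtg8* controls. Of 11 tested alpha and beta tubulins 8 were higher (8) and none lower, and each of the other 4 scalings gave 9 higher. The median was 0.59 against -0.17 for all tested genes, and the list summed to 13525 to 14443 and to 20219 to 24213. *Tubb3*, the neuronal tubulin, shared no window with another gene and had a log2 difference of 1.03 (SE 0.105, adjusted p = 1.0e-05 by limma) at a mean of 1217 ± 502 (n = 7). Among 16 microtubule-associated genes, led by *Stmn1*, *Dpysl2* (908 ± 231), *Stmn3* (360 ± 33.1) and *Map1b* (282 ± 27.5), 6 were higher (6) and 6 lower (2), while TMM gave 9 and 2. *Dpysl5*, which acts in growth cones, was higher by 1.96 (SE 0.123).

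Receptors for guidance and motility cues reached higher levels than their ligands. *Epha5* (26.098 ± 5.68, n = 7), *Erbb4* (16.2 ± 3.70), *Ackr3* (13.4 ± 3.26), *Epha4* (12.6 ± 2.37) and *Cxcr4* (10.2 ± 8.17) led 15 receptor genes, whereas 1 of 14 ligand genes, *Efnb3* (10.98 ± 1.82), reached 10, and *Bdnf* and *Hgf* were under 0.1. *Erbb4* is the receptor for neuregulins, and *Cxcr4* and *Ackr3* are the receptors for CXCL12, which keeps migrating interneurons in their streams. *Cxcl12* itself had 1.61 ± 0.576. *Cxcr4* stood at 7.35, 5.91, 7.41 and 23.3 against 3.56, 20.4 and 3.35, with 1 library of each set far above its neighbours. Of the 15 receptor genes 6 were higher (6) and 2 lower (1), and of 10 tested ligand genes 2 were higher (2) and 5 lower (4), compared with 16.4% and 29.4% of all tested genes. For the receptors, removal of the sequence trends gave 4 higher and 3 lower. For the ligands, each of the other 4 scalings gave 3 higher.

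Clustered protocadherins, cell surface proteins that give neurons individual recognition codes, were mostly higher in the *Mtg8* controls. The gamma genes kept the same count under the other 4 scalings and with the sequence trends removed, and the alpha and beta genes were less steady. The gamma genes summed to levels of 6.06 to 11.002 in the *Lhx6* controls and of 41.0 to 58.4 in the *Mtg8* controls, and 19 of 20 were higher (19), with a median of 2.25, the largest of the lists examined. For the beta genes the sums were 21.3 to 32.9 and 52.1 to 56.2 and 14 of 20 tested were higher (14). For the alpha genes they were 5.39 to 10.04 and 12.6 to 13.2, with 8 of 12 higher (8) and 1 lower (1, *Pcdhac2*). Each of the other 4 scalings gave 17 of 20 beta genes and 9 or 10 of 12 alpha genes higher. Removal of the sequence trends gave 10 of 20 beta and 4 of 12 alpha genes higher. The gamma genes share their last exons, and for *Pcdhgc3* 75.6% of windows occurred in other annotated genes, so single members are uncertain.

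Among genes of protein synthesis, of the immediate early response and of heat shock, called members were lower in the main scaling. Of 82 tested cytosolic ribosomal protein genes none was higher and 62 lower, with a median of -0.39, but 25 kept their call under all 4 scalings and TMM gave a median of -0.20. With the trends of GC content, GC-richest window and length removed, 13 were higher and 20 lower, with a median of -0.04, so the direction of this list depends on that step. For immediate early genes the same step gave 2 higher and 1 lower. Of 10 tested immediate early genes none was higher (1 under TMM and by DESeq2) and 4 lower (3), against 29.4% lower of all tested genes, among them *Ier2*, which stood at 16.6, 26.0, 24.2 and 19.9 against 0.651, 0.448 and 0.667. *Dusp1* (26.8 ± 12.6, n = 7) and *Btg2* (24.1 ± 4.86) were the highest of that list, and *Egr3*, *Npas4* and *Fosb* were under 0.1. Of 7 tested heat shock genes none was higher (1 under TMM, DESeq2 size factors and edgeR) and 3 lower (2), and the inducible *Hspa1a* and *Hspa1b* were at 0.307 ± 0.162 and 0.245 ± 0.142. Of 13 mitochondrial messages 4 were higher (4) and none lower, but the higher ones numbered 9 under TMM and 12 with the sequence trends removed. Mitochondrial genes took 2.24% to 2.87% of reads in the *Lhx6* controls and 3.02% to 3.39% in the *Mtg8* controls, a difference of 0.767 percentage points without overlap (exact permutation p = 0.0571, two-sided).

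Of 22 tested imprinted genes, which are read from 1 parental copy, 2 were higher (2) and 6 lower (4). In the main scaling these were no larger shares than the 16.4% and 29.4% of all tested genes. Each of the other 4 scalings gave 4 higher and 4 to 6 lower. *Nnat* had 2834, 2583, 2588 and 2698 against 687, 511 and 975.5, with each *Mtg8* control far below (log2 difference -1.93, SE 0.162). *Cdkn1c*, a cell cycle inhibitor, had 109, 82.3, 84.2 and 85.8 against 6.02, 7.89 and 4.74 (-3.83, SE 0.165). In neither gene did the sets overlap. *Igf2* and *Airn* were under 0.1. Of 13 tested long noncoding RNA genes 4 were higher (4) and 7 lower (6), and the imprinted *Peg13* had 8.93, 6.57, 24.8 and 6.19 against 80.2, 78.0 and 100.7 (3.12, SE 0.368).

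Most members of families of other tissues were below a level of 1. No *Hox* gene was listed in both tables, with *Hoxd13* in 1 of them. Of 44 olfactory receptor genes in both, 34 were under 0.1, and *Olfr482* (17.3) stood far above the next. Of its windows 32.0% occurred in other annotated genes, *Ramac* first among them. All 37 vomeronasal receptor genes in both tables were below 1. Of 9 keratin genes in both, *Krt10* led at 11.7 ± 4.04 (n = 7), 4 had a level of at least 1 and 3 were under 0.1 (*Krt79*, *Krt7*, *Krt75*), with 1 of 4 tested higher and 2 lower. The 1 beta defensin in both, *Defb42*, had 0.0838 ± 0.147. Every listed gene had at least 1 read in the controls and at least 1 in the mutants of its table, so a gene that is not listed was not analysed here rather than measured as 0.

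Embryos of the same set also differed among themselves. *Ttr*, the transthyretin gene that marks choroid plexus, had 358, 5.34, 26.4 and 1.71 CPM in the *Lhx6* controls and 0, 0.171 and 0 in the *Mtg8* controls. It was called lower, but the 3 *Mtg8* controls held 3 reads between them, at the limit that a count of 0 allows, and no fold is given. Around the set means its log2 values had an SD of 2.48, the largest of any protein-coding gene with at least 10 CPM. *Ttn*, the giant muscle protein gene (SD 1.85), had 160.3 CPM in *Lhx6* control 2 and 5.08 to 50.3 in the other 6 libraries. *Fos* (1.75) had 11.4, 13.2, 87.3 and 17.5 against 48.9, 29.9 and 2.24. *Car10*, *Cap1*, *Hba-a2*, *Hbb-bt*, *Hba-a1*, *Cxcr4* and *Hbb-bs* completed the 10 most variable, with SDs of 1.12 to 1.26. None of these but *Ttr* was called between the sets.

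The largest differences between the sets, in either direction, were found by limma in genes of varied function. Higher in the *Mtg8* controls were *Tmem132a*, a membrane protein gene, *Peg13*, *Atg9a*, which encodes an autophagy scramblase, and 7 gamma protocadherins (*Pcdhgc3*, *Pcdhga7*, *Pcdhga8*, *Pcdhgb5*, *Pcdhgc4*, *Pcdhga2*, *Pcdhga4*), by log2 values of 2.47 to 3.54. *Tmem132a* had 4.33, 3.74, 7.55 and 2.93 CPM against 54.6, 53.1 and 61.2, each *Mtg8* control above each *Lhx6* control, although 33.9% of its exon bases lie opposite *Slc15a3*. In GRCm38, *Tmem132a* lies at chr19:10857822-10869940, *Cnih2* at chr19:5092868-5098521, *Sap30* at chr8:57482707-57487860 and *Peg13* at chr15:72805600-72810324. *Atg9a* had 2.74, 2.49, 4.75 and 3.48 against 20.9, 21.2 and 24.1. Lower, after *Ttr*, were the pseudogene *Rps2-ps10*, *Cnih2*, an auxiliary subunit of AMPA receptors, *Sap30*, of the SIN3 co-repressor complex, *Dapk3*, a kinase, *Ttc9b*, *Ypel3*, *Ppp1r35*, *Gnas*, the stimulatory G protein subunit, and *Scand1*, by log2 values of -5.00 to -4.64. *Cnih2* had 328, 204, 384 and 306 CPM against 12.8, 9.84 and 8.44, and *Sap30* 118, 125, 131 and 131 against 3.59, 5.69 and 3.36. In all 20 genes the sets did not overlap.

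The genes that were lower in the *Mtg8* controls were shorter and richer in GC stretches than the others. Their median summed exon length was 3190.5 bases against 5269 for the higher genes and 3773 for all tested. The median of the highest GC content in any 150-base window of a gene's longest annotated transcript was 72.7% against 66.7% and 67.3%. Among protein-coding genes in the highest quintile of this window measure 8.17% were higher and 50.6% lower, compared with 21.2% and 17.5% in the lowest quintile. In the shortest quintile of genes 5.84% were higher and 42.7% lower, and in the longest 23.7% and 23.4%. The window measure was chosen after the data had been seen. Removing each library's trends with GC content, window and length gave 3810 higher and 2779 lower. With these trends removed *Sst*, *Lhx6*, *Runx1t1* and *Npy* were called higher, by 0.60, 0.62, 0.64 and 0.34. The pyramidal list then held 8 lower and 1 higher of 15, and the gamma protocadherins 19 higher of 20. The part of cell makeup or sequence in single differences was not tested.

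**Figure D5:**
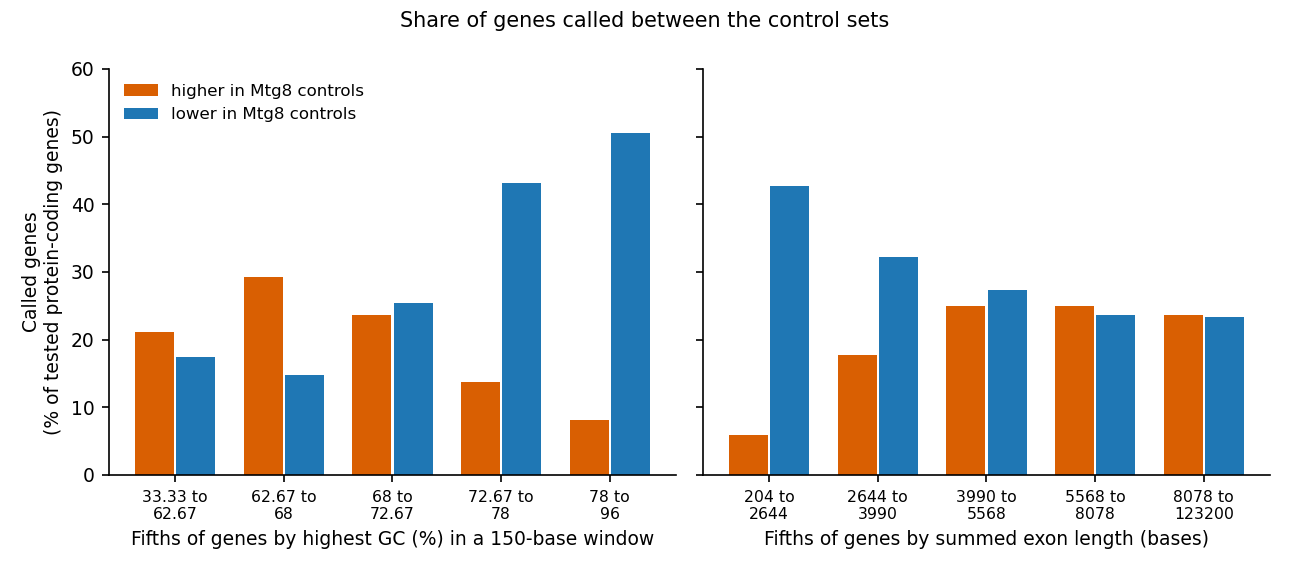
Share of tested protein-coding genes called higher (orange) or lower (blue) in the Mtg8 controls, in quintiles of genes by the highest GC content of a 150-base window of the longest transcript (left) and by summed exon length (right). The lower share is 17.5% in the first and 50.6% in the GC-richest quintile and falls from 42.7% in the shortest to 23.4% in the longest genes.

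The GC-richest 150-base coding windows of 5 of these genes are printed to show what such stretches look like, for the first 3 lower genes outside the pseudogenes and *Ttr* and for the 2 higher protein-coding genes outside the protocadherin cluster. They are taken from the GRCm38 reference and the GENCODE annotation, read 5′ to 3′ along the message on the strand named, with unbroken runs of at least 8 G or C bases in capitals. Where a window spans exons, the positions give its first and last base and the introns are left out.
Cnih2, chr19:5093956-5094756, minus strand, 3 exons: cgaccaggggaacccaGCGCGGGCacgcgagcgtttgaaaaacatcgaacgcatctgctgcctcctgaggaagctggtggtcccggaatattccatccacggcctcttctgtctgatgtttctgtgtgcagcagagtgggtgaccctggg
Sap30, chr8:57487389-57487538, minus strand, 1 exon: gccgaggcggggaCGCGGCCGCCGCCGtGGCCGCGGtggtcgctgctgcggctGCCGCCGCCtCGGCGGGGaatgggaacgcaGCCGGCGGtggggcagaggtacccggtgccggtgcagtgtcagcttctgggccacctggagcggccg
Dapk3, chr10:81192619-81192768, plus strand, 1 exon: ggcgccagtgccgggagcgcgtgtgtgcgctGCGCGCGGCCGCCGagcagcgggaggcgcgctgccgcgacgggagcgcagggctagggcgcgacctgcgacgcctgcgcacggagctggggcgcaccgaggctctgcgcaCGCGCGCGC
Tmem132a, chr19:10858834-10858983, minus strand, 1 exon: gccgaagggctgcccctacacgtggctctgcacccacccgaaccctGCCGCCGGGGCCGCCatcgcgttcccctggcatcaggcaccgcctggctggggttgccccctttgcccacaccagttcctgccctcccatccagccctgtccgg
Atg9a, chr1:75182713-75183018, minus strand, 2 exons: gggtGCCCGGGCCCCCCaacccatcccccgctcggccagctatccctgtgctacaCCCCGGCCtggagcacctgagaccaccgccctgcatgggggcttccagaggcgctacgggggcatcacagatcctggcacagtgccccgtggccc

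The GC content of these windows was 59.3% in *Cnih2*, 78.7% in *Sap30* and 81.3% in *Dapk3*, which were lower, and 72.0% in both *Tmem132a* and *Atg9a*, which were higher. The longest run of G and C bases was 8, 14 and 14 in the lower genes and 15 and 13 in the higher ones. Over the longest annotated transcript of each gene, noncoding bases included, the highest GC content of a 150-base window was 80.7%, 78.7% and 81.3% in *Cnih2*, *Sap30* and *Dapk3*. These were above the 72.0% of *Tmem132a* and of *Atg9a*.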

How the data were processed

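Libraries were made from sorted cells with a low-input cDNA kit and sequenced as single 75-base reads. Per the study's methods, the authors used fastp 0.20.1 for trimming, STAR 2.7b for alignment and featureCounts 1.6.4 for counting. They removed genes of the sex chromosomes by the GENCODE M23 annotation of GRCm38.p6, and scaled the rest with DESeq2. Strand setting and treatment of reads with several matches are not given in the sources used here. The deposited signal values are reads divided by a DESeq2 size factor, each table scaled by the authors on its own (26835 genes listed with the *Lhx6* libraries, 25714 with the *Mtg8* libraries). The tables also hold the authors' own comparisons (mean, fold change, its error, statistic, p and adjusted p), which were not used.

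All values were whole multiples of a library's smallest step within 0.01 (100%), so whole reads were recovered, which undid the authors' scaling. Each library was then rescaled to its own total over the 24158 shared genes. Log2 (CPM + 0.5) was compared with limma 3.58.1 (trended variance, two-sided, Benjamini-Hochberg adjusted p below 0.05) over 15020 genes with a mean of at least 1 CPM. The sets were fitted without other terms, and a difference is *Mtg8* controls minus *Lhx6* controls. The counts so recovered also went into edgeR 4.0.16 and DESeq2 1.42.0 (R 4.3.3) as alternatives, and 25 alternatives were run in all. Single shares were compared with exact permutation tests. The test was checked on simulated data. Each replicate is 1 embryo, and whether embryos of a set shared a litter is not stated. In each set the library names of controls 1 and 2 share all but their last number. What the shared part stands for is not stated, and the fit treated all libraries as independent.

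Genes were named by rule: the 5 markers, the 20 nuclear protein-coding genes with the highest mean level, the highest, lowest and called members of each list, the 10 called genes a direction with the largest difference, and the 10 most variable protein-coding genes. Members and lists were chosen with earlier results of these data known. Sequence was read from the GRCm38 reference, 99.9% of shared genes being matched by identifier. Shared windows are exact 75-base matches on either strand to any other gene of the GENCODE annotation, whether or not it was counted here. Symbols of 22 genes were held as dates and were replaced by their identifiers. Results of some genes that the rule would name are not reported here.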

Additional observations from a re-analysis of the deposited data

Results flagged for a closer look

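In 11 of 105 values tested (10.5%), 1 of the 4 *Lhx6* controls stood apart from the other 3 by a gap above Dixon's limit for 4 values at the 95% level, where chance gives about 1 in 20. The values tested include genes named for their large spread, so this share cannot be read against chance. The 3 *Mtg8* controls are too few for this test. *Lhx6* control 1 had 358 CPM of *Ttr*, against 1.71 to 26.4 in the others. In *Lhx6* control 2, *Ttn* stood at 160.3 CPM against 5.08 to 12.8, the summed level of the E-protein and Id genes at 235.3 against 197.9 to 202.8, and that of the beta defensins at 0.4159 against 0.0262 to 0.0502. *Lhx6* control 3 had 117 CPM of *Peg13* against 29.3 to 42.2 and 87.3 of *Fos* against 11.4 to 17.5, and summed levels of 10.67 against 5.16 to 5.62 for microglia genes and of 6.367 against 1.62 to 2.06 for mural genes. In *Lhx6* control 4, *Cxcr4* was at 42.08 CPM against 10.7 to 13.4, *Ppp1r35* at 34.96 against 42.3 to 42.6, and the neuropeptide sum at 1733 against 1572 to 1594.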

How the results depend on the processing

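Of the 20 genes with the largest differences, none changed direction and all stayed called in the 494 values that the 25 alternatives gave. Values are missing where a setting's filter left a gene out, and for *Ttr* by DESeq2, which gave no adjusted p. The 20 were picked as the largest called differences of these same data, so their staying called is little check. Genes higher in the *Mtg8* controls numbered 1628 at an adjusted p below 0.01 and 601 with a log2 difference of at least 1, where 2011 were lower. With trends of GC content, GC-richest window and length removed, an alternative chosen after seeing the data, 3810 were higher and 2779 lower, and 3345 and 2499 with a replicate block in addition. The replicate block alone gave 2298 and 3984. Same-numbered libraries did not deviate together (correlations 0.0239, -0.0488 and 0.0088). With so few pairs these values cannot show whether they share anything beyond the number. Leaving out each replicate gave 1975 to 2419 higher and 3873 to 4147 lower. By TPM, 46 nuclear protein-coding genes reached 1000, 850 reached 100 and 5742 reached 10. Without single replicates the counts at or above 1000, 100, 10 and 1 were 23 to 25, 375 to 391, 3715 to 3796 and 9606 to 9700, the mitochondrial difference 0.689 to 0.898 and that of the top 20 share 1.39 to 1.73, with exact permutation p-values that cannot pass 0.05 at these sizes.

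The signs of the differences of *Runx1t1*, *Npy* and *Gad1* depended on the scaling. *Runx1t1* gave 0.1525 with TMM, 0.1454 with DESeq2 size factors, 0.1256 with edgeR, 0.1212 with DESeq2, 0.0499 with the replicate block, 0.64 with trends removed, 0.70 with the block in addition, and -0.1474 to 0.0499 without single replicates. *Npy* gave 0.1495, 0.1424, 0.1318 and 0.1277 in the same order, 0.1071 with the term for name style, 0.34 with trends removed, 0.36 with the block in addition, and -0.1219 to 0.0147 without single replicates. *Gad1* gave 0.1482, 0.1411, 0.1226 and 0.1165, 0.0216 with library quality weights, and -0.1508 to 0.0396 without single replicates. *Lhx6* ranged from -0.0242 to 0.1494 without single replicates and gave 0.27 with TMM and 0.62 with trends removed. Among these, *Runx1t1*, *Npy* and *Lhx6* were called with trends removed. *Sst* was called by DESeq2 size factors (0.42), DESeq2 (0.41), with trends removed (0.60, and 0.58 with the block) and without *Mtg8* control 2 (0.34). The cause of these shifts was not tested. At these depths, levels near 0.1 rest on few reads.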
